A study of Mus musculus with 6 samples.

Results

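The acyl-CoA thioesterase family was followed in mouse atria through 10 genes, Acot1, Acot2, Acot3, Acot4, Acot7, Acot8, Acot9, Acot11, Acot12 and Acot13. They were taken by gene name from the 43432 genes of the deposited table, and each name was found on a single row. The RNA came from atria of wild-type C57/Bl6J mice, 3 fed a high-fat diet (HFD) and 3 fed control chow, each for 10 weeks from 6 weeks of age. Each mouse was placed by its sample title, with which the table's column names go together. In all 6 samples the labelled treatment names the other diet, and every direction below would turn round if that label were right. Each library was made from whole atrial tissue, so a change in the number of cells of a type and a change in the RNA per cell cannot be told apart.

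Acyl-CoA thioesterases cut the thioester bond of fatty acyl-CoA, which releases the free fatty acid and coenzyme A. They oppose the acyl-CoA synthetases and so bear on how much activated fatty acid is at hand for oxidation, lipid synthesis or signalling in each compartment of the cell. The type I enzymes (Acot1 to Acot4) share an alpha/beta hydrolase fold and are encoded by neighbouring genes, and the type II enzymes (the other members) share the hot dog fold and lie on several chromosomes. In heart and liver, genes of the type I enzymes are known targets of the fatty acid-activated receptor PPAR-alpha.

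Acot1 and Acot2 are near-identical copies, and the sequences below are shown because these 2 genes carry the largest changes in the family. The coding sequences of GENCODE (GRCm38) aligned over 1239 bases with 95.24% identity, and the longest identical run was 273 bases. Acot2 has 123 coding bases ahead of the position where the coding sequence of Acot1 begins, a stretch that belongs to the part of ACOT2 that directs the protein to mitochondria. ACOT1, which starts without it, is a cytosolic enzyme. These 123 bases lie in exon 1 of Acot2, on the plus strand at chr12:83987902-83988024.
Acot2, coding bases ahead of the start of Acot1: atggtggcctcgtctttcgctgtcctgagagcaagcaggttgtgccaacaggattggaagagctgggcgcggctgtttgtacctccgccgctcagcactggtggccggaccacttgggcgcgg
The next 120 bases run in parallel in both genes, in exon 1 and on the plus strand, at chr12:84009510-84009629 for Acot1 and chr12:83988025-83988144 for Acot2. Capitals mark the 13 positions where the pair differs.
Acot1, coding bases 1 to 120: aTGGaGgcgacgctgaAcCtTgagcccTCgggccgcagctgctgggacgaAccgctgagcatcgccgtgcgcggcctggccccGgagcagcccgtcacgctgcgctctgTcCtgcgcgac
Acot2, coding bases 124 to 243: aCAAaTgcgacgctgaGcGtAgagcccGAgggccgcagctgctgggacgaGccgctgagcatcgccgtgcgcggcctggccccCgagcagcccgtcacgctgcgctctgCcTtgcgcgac

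The likeness of the copies bears on how their reads were counted. The libraries were read as single reads of 50 bases and the authors kept reads with a unique alignment. Of the 3886 distinct stretches of 50 bases in Acot1 transcripts, 527 (13.56%) also occur in Acot2 transcripts, and they make up 24.55% of the 2147 stretches of Acot2. Over all other genes, 748 stretches of Acot1 (19.25%) and 595 of Acot2 (27.71%) recur. Reads from such shared stretches could not have been placed uniquely, so the level of each gene rests on the remainder of its transcripts. The 5 remaining pairs among the 4 type I members shared 31 to 171 such stretches. The coding sequences of Acot9 and Acot10, a single-exon copy on chromosome 15, were 97.2% identical. No stretch of Acot7 or Acot13 was found in transcripts of another gene.

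Reads on genes numbered 15874251 to 17351467 in the HFD mice and 16079935 to 28971508 in the control mice, control mouse 2 being the deepest. Values are normalized counts, the read count of a gene divided by a size factor for each mouse. Limma was run on log2(normalized count + 1) for the 15275 genes whose mean reached 10, and fold changes are on that scale. At a Benjamini-Hochberg adjusted p under 0.05, limma called 114 of these genes (0.746%), and 74 of them were higher in the HFD mice (0.484%). With 3 mice a group, the smallest two-sided p of an exact permutation test is 0.1. Atrial markers were abundant in every library, with Nppa, atrial natriuretic peptide, between 171700 and 333980 normalized counts.

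Of the 10 members, 7 passed the filter on low values and 3 (Acot3, Acot4 and Acot12) did not. Among the 7 tested, 1 was called by limma and it was higher in the HFD mice (Acot2). Groups did not overlap in 3 members, Acot1, Acot2 and Acot11, each higher in the HFD mice, while 18.0% of all genes tested had groups that did not overlap in either direction. The same 3 had an unadjusted limma p under 0.05, against 12.2% of all genes. The median log2 fold change of the 7, which is that of Acot8, was 0.17, beside 0.00492 over all genes tested. The plot of the values of each mouse shows how unevenly the members changed.

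**Figure D1:**
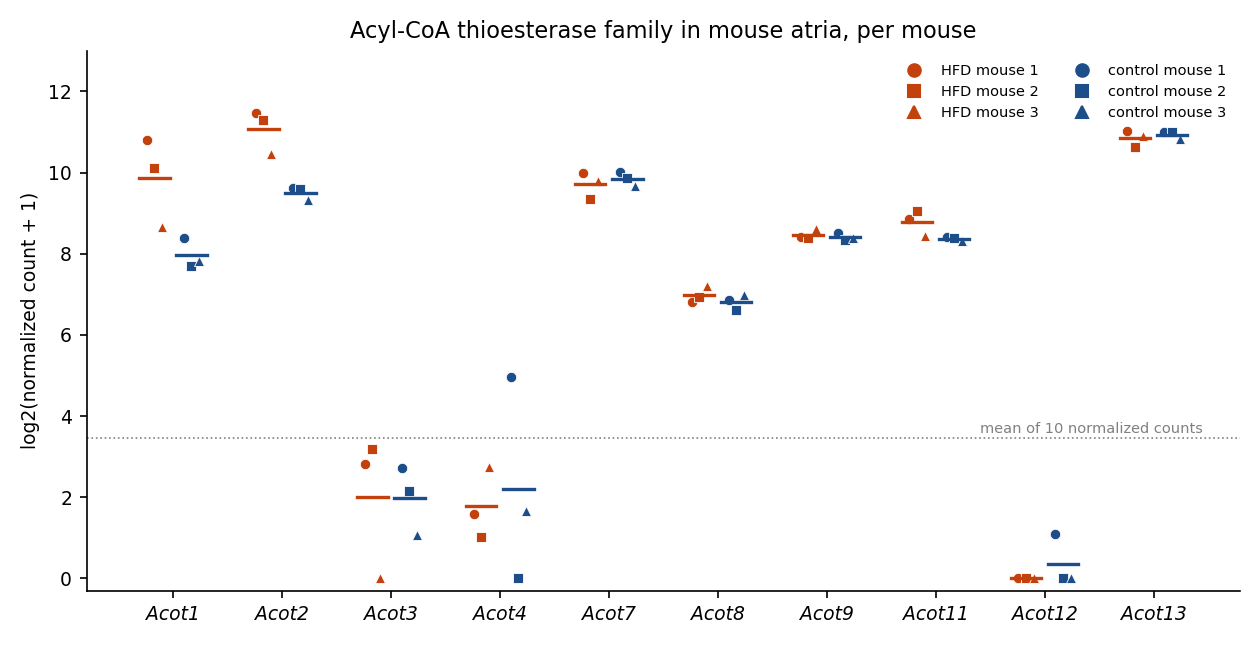
Level of the 10 thioesterase members in each mouse, as log2(normalized count + 1) on the vertical axis; orange marks are HFD mice, blue marks control mice, the mark shapes give the mouse number, horizontal bars are group means and the dotted line is at 10 normalized counts. Acot1 and Acot2 stand apart between the diets, with all 3 HFD mice above the 3 control mice, and Acot7, Acot8, Acot9 and Acot13 overlap.

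Acot2, the mitochondrial type I thioesterase (chr12:83987861-83993873, plus strand), had 2846, 2515 and 1403 normalized counts in HFD mice 1, 2 and 3. The control mice had 779, 770 and 637. Even the lowest HFD mouse, mouse 3, lay well above the highest control mouse. On average the HFD mice had 2255 ± 756 and the control mice 729 ± 79.4 (SD, n = 3 each). Acot2 rose 2.97-fold, with a 95% confidence interval of 2.09 to 4.21 (log2 fold change 1.57, SE 0.23), at an adjusted p of 0.0172 by limma. Acot2 was thus the thirtieth gene of 15275 by adjusted p. Its exact permutation p (two-sided) of 0.1 is the lowest this design can reach. The call was lost when any of 4 mice was left out, as the adjusted limma p was 0.0641, 0.0779 and 0.0888 without control mouse 1, 2 or 3 and 0.0696 without HFD mouse 2, with log2 fold changes of 1.46 to 1.62. Without HFD mouse 1 it was 0.0412, and without HFD mouse 3 8.73e-05. With no variance trend in limma it was 0.177, a setting under which no gene passed.

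Acot1, the cytosolic partner (chr12:84009502-84017670, plus strand), had 1781, 1097 and 405 normalized counts in HFD mice 1, 2 and 3 and 334, 206 and 226 in control mice 1, 2 and 3. The groups did not overlap, but HFD mouse 3 exceeded control mouse 1 by far less than the other 2 HFD mice did. The highest HFD mouse held 4.39 times the level of the lowest, against a span of 2.03 times for Acot2. On average the HFD mice had 1095 ± 688 and the control mice 255 ± 68.6 (SD, n = 3 each). The log2 fold change of 1.89 (SE 0.43) corresponds to a fold of 3.70 (95% confidence interval 1.92 to 7.13). At an adjusted limma p of 0.0813 this did not pass the threshold. The exact permutation p was again 0.1. On the recovered reads, edgeR gave Acot1 an adjusted p of 0.0663 and called 1 member, Acot2, against 0.570% of all genes. DESeq2 gave 0.0231 and called 2 members, Acot1 and Acot2, against 3.34% of the 14079 genes to which it gave an adjusted p. Without HFD mouse 3, the adjusted limma p of Acot1 was 0.00122 and the log2 fold change 2.48.

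**Figure D2:**
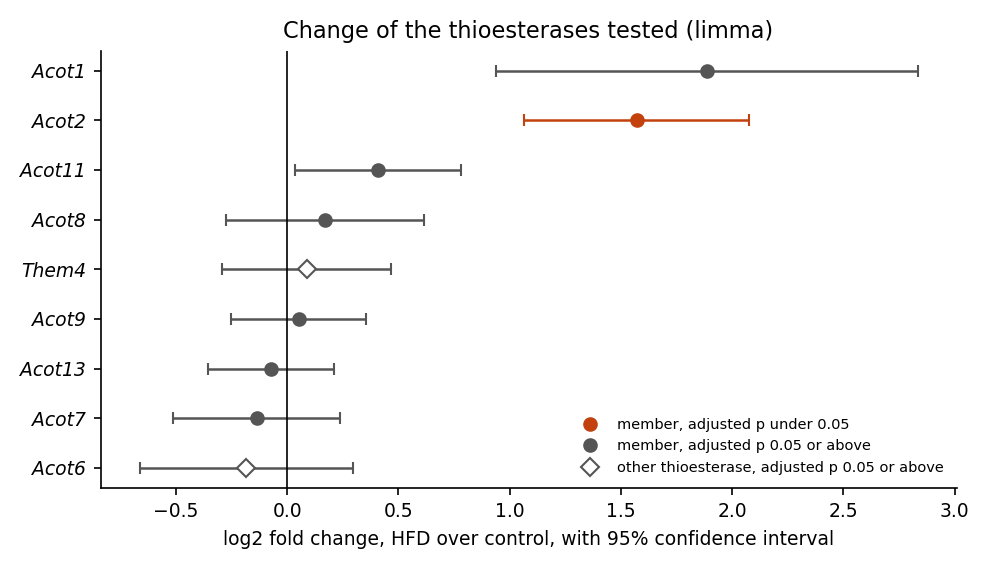
Log2 fold change of HFD over control mice for each thioesterase tested, with its 95% confidence interval from limma; filled circles are members, open diamonds other thioesterases, and orange marks the gene with an adjusted p under 0.05. The intervals of Acot1, Acot2 and Acot11 lie above 0, and those of the other 6 genes cross it.

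The pair was compared within each mouse by subtracting the log2 value of Acot2 from that of Acot1. The difference was -0.68, -1.20 and -1.79 in HFD mice 1, 2 and 3 and -1.22, -1.90 and -1.49 in control mice 1, 2 and 3. In normalized counts, Acot1 stood at 0.626, 0.436 and 0.289 of Acot2 in the HFD mice and at 0.428, 0.268 and 0.355 in the control mice, so the groups overlapped. The mean differences of -1.22 ± 0.56 and -1.54 ± 0.34 (SD, n = 3 each) differed by 0.32 between the diets, with a two-sided exact permutation p of 0.4. No difference between the changes of the 2 genes was therefore detectable with 3 mice a group. Leaving out HFD mouse 1 brought the value to 0.0441 and leaving out HFD mouse 3 to 0.60.

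The other type I members were close to the limit of detection. Taking 3 reads as the smallest signal, that limit was 2.05 normalized counts in control mouse 2 and 3.01 to 3.41 in the others, for counting error only. Acot3, a peroxisomal long-chain acyl-CoA thioesterase, had 6, 8 and 0 reads in HFD mice 1, 2 and 3 and 5, 5 and 1 in control mice 1, 2 and 3. Acot4, a peroxisomal enzyme that acts on succinyl-CoA, had 2, 1 and 5 reads in the HFD mice and 27, 0 and 2 in the control mice. Its 27 reads, all in control mouse 1, gave 30.2 normalized counts, and the other 5 mice had 5.68 or fewer. Neither gene was tested. Both overlap an antisense transcript, 4732463B04Rik, which had 5 reads or fewer in each mouse. On the same strand, the protein-coding gene Gm49366 shares 396 exon bases with Acot3 and 33 with Acot4. Gm49366 is absent from the deposited table, so its reads could not be looked at.

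Of the type II members, Acot11 had groups that did not overlap. Acot11 encodes a long-chain acyl-CoA thioesterase also known as Them1, which is induced by cold in brown fat and lies at chr4:106744555-106804998 on the minus strand. It had 462, 527 and 343 normalized counts in HFD mice 1, 2 and 3 and 338, 333 and 318 in control mice 1, 2 and 3. HFD mouse 3 was only just above the highest control mouse. On average the HFD mice had 444 ± 93.4 and the control mice 330 ± 10.4 (SD, n = 3 each). The log2 fold change of 0.41 (SE 0.17) had an adjusted limma p of 0.365. Its exons share 1263 bases with Fam151a on the opposite strand, and whether reads were assigned by strand is not stated. Fam151a itself had 10 reads or fewer in every mouse.

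The 4 other type II members tested overlapped between the diets. Acot13 (Them2), a long-chain enzyme associated with mitochondria (chr13:24817948-24831517, minus strand), had 2098, 1595 and 1913 normalized counts in HFD mice 1, 2 and 3 and 2041, 2031 and 1801 in the control mice. The fold was 0.950 with a 95% confidence interval of 0.781 to 1.16, and the adjusted limma p was 0.869. Acot7, the cytosolic enzyme best known from brain (chr4:152178134-152271855, plus strand), had 1011, 650 and 893 in the HFD mice and 1024, 934 and 816 in the control mice. Its fold was 0.909 (0.701 to 1.18), at an adjusted limma p of 0.801. For these abundant members the intervals thus left room for changes of up to 1.18-fold upward and down to 0.701-fold.

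Acot9, a mitochondrial thioesterase (chrX:155262443-155297654, plus strand), had 339, 331 and 392 normalized counts in HFD mice 1, 2 and 3 and 362, 325 and 336 in the control mice. The fold was 1.04 (95% confidence interval 0.840 to 1.28), at an adjusted limma p of 0.925. Its copy Acot10 had 1 to 12 reads in the HFD mice and 3 to 24 in the control mice. Acot8, the peroxisomal enzyme with broad substrates (chr2:164792768-164804882, minus strand), had 112, 121 and 147 in the HFD mice and 114, 96.5 and 126 in the control mice. The fold was 1.13 (0.826 to 1.53), at an adjusted limma p of 0.793. Acot8 shares 246 exon bases with Snx21 on the opposite strand, a gene with a mean of 521 normalized counts, so part of its low level may belong to either strand.

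Acot12, an acetyl-CoA thioesterase of liver, had 1 read in control mouse 1 and none in the other 5 mice, which allows up to 3 reads in each. It was not tested. The groups overlapped for the thioesterases outside the membership. Acot6, the next type I gene of the cluster, had 74.3, 97.9 and 86.3 normalized counts in HFD mice 1, 2 and 3 and 96.3, 86.2 and 111 in the control mice (adjusted limma p 0.792). Them4 had 200, 183 and 237 in the HFD mice and 179, 220 and 184 in the control mice (adjusted limma p 0.890). Acot5, Acot10 and Baat, the bile acid-conjugating enzyme, had means below 10, and Them5 had no read.

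The classes were set side by side by the mean log2 value of their tested members, 2 of type I and 5 of type II. Type I minus type II was 2.12, 1.83 and 0.57 in HFD mice 1, 2 and 3 and 0.05, -0.20 and -0.26 in control mice 1, 2 and 3. All 3 HFD mice lay above the control mice, with mouse 3 nearest to them. The group means were 1.51 ± 0.82 and -0.14 ± 0.16 (SD, n = 3 each), a shift of 1.64. The type I mean, over Acot1 and Acot2, was 8.74 in the control and 10.5 in the HFD mice, and that of type II 8.88 and 8.96. Of these 7 genes, Acot2 passed the limma threshold. No p is given, because the score averages the members already described. With the low members Acot3, Acot4 and Acot12 taken in, the shift was 0.75.

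Levels of different genes were compared per kilobase of exon, without a correction for stretches shared with other genes. Such stretches made up 19.25% of those of Acot1 and 27.71% of those of Acot2 but none of Acot7 or Acot13. Levels and shares of Acot1 and Acot2 may therefore be understated against those 2 genes. In the control mice the order was Acot13 with 2631 ± 182 normalized counts per kb, Acot7 with 436 ± 49.1, Acot2 with 332 ± 36.2, Acot9 with 150 ± 8.29, Acot1 with 65.1 ± 17.5, Acot8 with 56.2 ± 7.37 and Acot11 with 54.4 ± 1.71 (SD, n = 3 each). The spreads of Acot1, Acot8 and Acot11 overlapped in these mice, and each of the neighbours above them in the order stood apart. In the HFD mice the order was Acot13 with 2511 ± 342, Acot2 with 1027 ± 344, Acot7 with 401 ± 86.7, Acot1 with 279 ± 176, Acot9 with 156 ± 14.5, Acot11 with 73.3 ± 15.4 and Acot8 with 63.3 ± 9.04. Acot2 had passed Acot7, and Acot1 overlapped both Acot7 and Acot9. Part of the order depends on the length used. Per kilobase of coding sequence Acot1 (871) stood above Acot7 (739) in the HFD mice, and Acot11 (179) above Acot8 (117) in the control mice. Acot3, Acot4 and Acot12 had at most 4.53 per kb in any mouse.

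As a share of the summed level per kb of the 10 members, Acot1 and Acot2 together took 32.9%, 34.2% and 18.4% in HFD mice 1, 2 and 3. In control mice 1, 2 and 3 they took 11.2%, 10.6% and 10.2%. The mean share was 28.5% ± 8.76 against 10.6% ± 0.491 (SD, n = 3 each), and it was 29.6% against 10.9% when coding length replaced exon length. Acot13 was the leading member in every mouse, with 51.4% to 63.7% in the HFD mice and 69.6% to 71.5% in the control mice. The plot of the shares shows that the control mice resembled one another closely and that HFD mouse 3 lay between them and HFD mice 1 and 2.

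**Figure D3:**
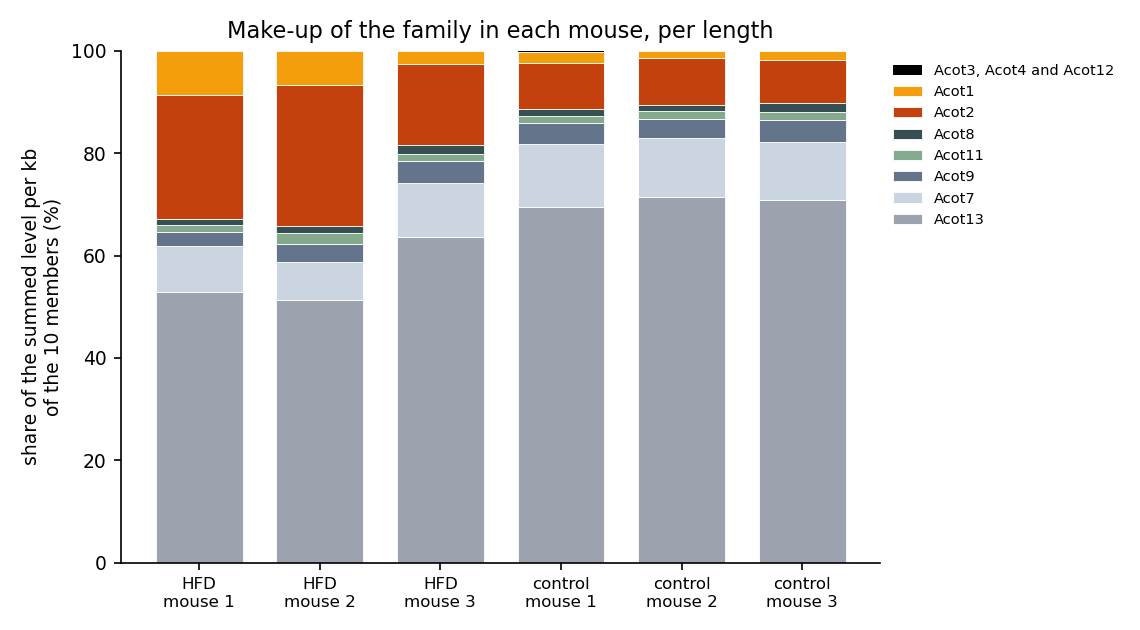
Share of each member in the summed level per kb of the 10 members (percent, vertical axis) in each of the 6 mice (horizontal axis). The Acot1 and Acot2 segments together reach 32.9%, 34.2% and 18.4% in the HFD mice and 10.2% to 11.2% in the control mice, while the Acot13 segment is smaller in the HFD mice.

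The type I genes lie in a row on the plus strand of chromosome 12 in the order Acot2, Acot1, Acot4, Acot3, Acot5 and Acot6. Acot1 begins 21.6 kb after the start of Acot2, Acot4 50.5 kb and Acot6 113 kb after it. Among the tested genes of this row, the log2 fold change was 1.57 for Acot2, 1.89 for Acot1 and -0.18 for Acot6. Only that of Acot2 passed the limma threshold, and no difference between the changes of Acot1 and Acot2 was detectable. Of the genes on either side, Numb (log2 fold change 0.33), Riox1 (0.03), Dnal1 (-0.06), Pnma1 (1.12) and Elmsan1 (0.47) all had adjusted limma p of 0.250 or above. For Numb and Elmsan1, every HFD mouse still lay above every control mouse, and the groups overlapped for Riox1, Dnal1 and Pnma1. Over all genes tested, 18.0% had groups that did not overlap in either direction.

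**Figure D4:**
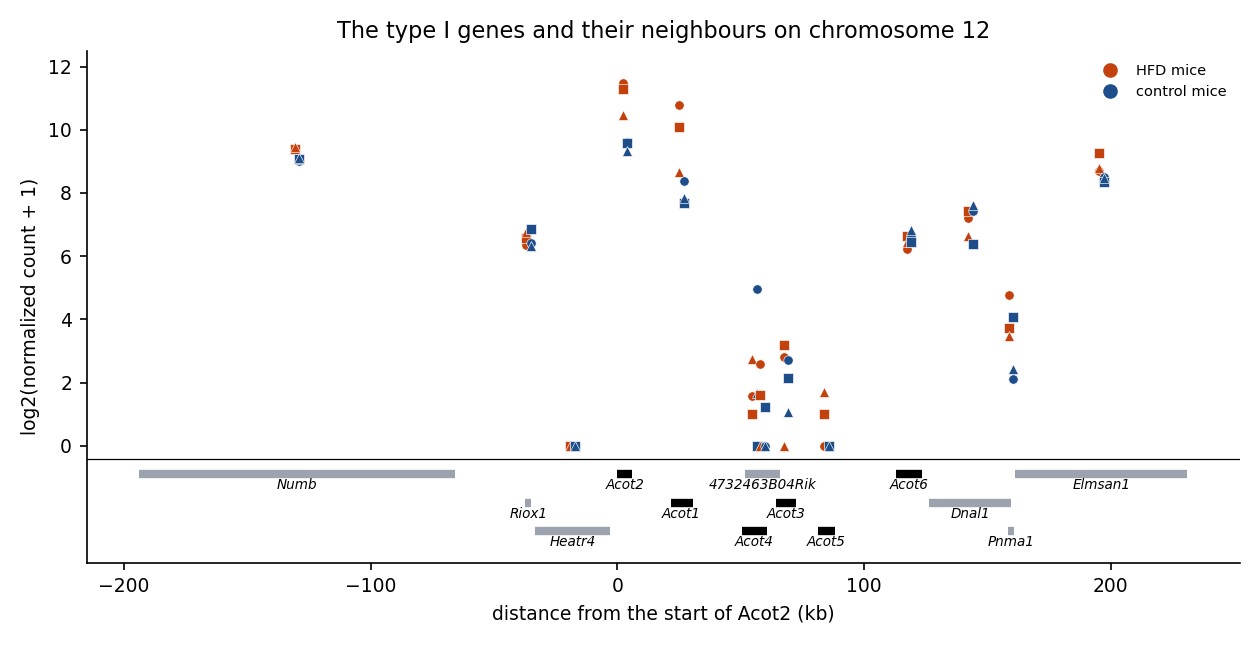
The type I genes (black bars) and named neighbours (grey bars) by distance from the start of Acot2 in kb, with log2(normalized count + 1) of each HFD mouse (orange) and control mouse (blue) above each gene. The 2 sets of marks part at Acot2 and Acot1 and, among the neighbours, at Numb and Elmsan1. They are low at Acot4, Acot3 and Acot5, where only control mouse 1 at Acot4 exceeds 10 normalized counts, and overlap at Acot6.

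The start regions of Acot1 and Acot2 were read because these neighbours were both higher in the HFD mice. RefSeq (GRCm38.p6) gave a window from 250 bases before to 50 bases after the start site for 9 of the 10 members. The letters below were searched on both strands, and the hexamer AGGTCA is contained in the direct repeat. AGGTCA, the core bound by many nuclear receptors, occurs in 16.26% of all 32851 windows and in neither of these 2. The direct repeat AGGTCANAGGTCA, the arrangement bound by PPAR with its partner RXR, occurs in 0.0396% of windows, and its looser form AGGNCANAGGNCA in 0.381%, and no window of the family held either. CCAAT occurs in 37.41% of windows and once in each of these 2, on the plus strand 79 bases before the start of Acot1 and on the minus strand 244 bases before that of Acot2. Capitals mark it, read as ATTGG where it is on the minus strand.
Acot1, plus strand, chr12:84009252-84009551: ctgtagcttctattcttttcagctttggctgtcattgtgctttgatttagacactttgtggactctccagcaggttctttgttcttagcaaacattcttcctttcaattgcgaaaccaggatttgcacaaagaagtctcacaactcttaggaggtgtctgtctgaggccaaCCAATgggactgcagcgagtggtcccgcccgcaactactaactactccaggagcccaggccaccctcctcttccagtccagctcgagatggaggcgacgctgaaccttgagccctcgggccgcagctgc
Acot2, plus strand, chr12:83987611-83987910: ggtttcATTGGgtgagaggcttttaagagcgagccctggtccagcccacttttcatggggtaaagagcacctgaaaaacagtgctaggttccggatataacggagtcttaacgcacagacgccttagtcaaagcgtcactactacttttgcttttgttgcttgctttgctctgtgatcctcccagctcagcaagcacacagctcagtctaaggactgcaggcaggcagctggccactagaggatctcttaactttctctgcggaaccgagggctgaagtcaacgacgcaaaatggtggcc
These matches are letters in a short window and say nothing on whether a factor was bound there or farther away.

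Genes that act on acyl-CoA before, beside and after the thioesterases were read from 8 lists with 108 genes, of which 93 were tested. Of these, 6 were called by limma, all higher in the HFD mice and all on the list of PPAR-responsive genes, where 6 of 23 tested passed with a median log2 fold change of 0.53. Angptl4, an inhibitor of lipoprotein lipase, had 1851, 1418 and 1412 normalized counts in HFD mice 1, 2 and 3 and 80.6, 33.5 and 32.8 in the control mice (log2 fold change 5.08, SE 0.30, adjusted limma p 0.000116). Pdk4, a kinase that shuts off pyruvate dehydrogenase, had 58780, 64656 and 28363 against 5700, 4800 and 5657 (3.15, SE 0.26, adjusted limma p 0.000719). Ucp3, a mitochondrial carrier, had 1778, 2003 and 691 against 212, 244 and 151 (2.76, SE 0.35, adjusted limma p 0.00937). In Pdk4 and Ucp3, as in Acot1 and Acot2, HFD mouse 3 was the lowest of the HFD mice. HFD mouse 3 was the lowest HFD mouse in 18 of the 23 PPAR-responsive genes tested (78.3%) and in 3 of the 7 members. The same held for 38 of the 74 genes that limma called higher in the HFD mice and for 36.1% of all genes tested. Counts over these lists changed when a mouse was left out. Of the genes, 3, 3 and 2 passed without control mouse 1, 2 or 3, 3 and 3 without HFD mouse 1 or 2, and 21 without HFD mouse 3. Over all genes tested, 114 passed with every mouse in. Without control mouse 1, 2 or 3 it was 48, 14 and 19, without HFD mouse 1 or 2 50 and 24, and without HFD mouse 3 318.

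None of the other 7 lists held a gene past the threshold, and the plot of the lists shows their spread. Unadjusted limma p under 0.05 was found for 5 of 16 acyl-CoA synthetases, 5 of 8 genes of the carnitine shuttle, 8 of 17 of mitochondrial beta-oxidation, 6 of 16 of peroxisomal acyl-CoA oxidation, 3 of 13 of CoA synthesis and turnover, 2 of 8 PPAR receptors and coactivators and none of 5 acyl-CoA binding proteins. Over all genes tested the share was 12.2%. Of the 93 genes tested, edgeR called 3, against 0.570% of all genes, and DESeq2 19, against 3.34%. Acsl1, the main acyl-CoA synthetase of heart and the enzyme that makes the substrate of the thioesterases, had 12599, 12913 and 10179 normalized counts in HFD mice 1, 2 and 3 and 8585, 7325 and 8330 in the control mice (log2 fold change 0.55, adjusted limma p 0.0893). Cpt1a, which commits acyl-CoA to the mitochondrial carnitine shuttle, had 1670, 2036 and 1222 against 923, 799 and 944 (0.86, adjusted limma p 0.0577). Decr1, an auxiliary enzyme of mitochondrial beta-oxidation, had a log2 fold change of 0.57 (adjusted limma p 0.0675) and Ech1 of the peroxisomal list 0.68 (adjusted limma p 0.0550).

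For the remaining lists, Nudt8, a CoA hydrolase, had 1389, 1424 and 1558 normalized counts in HFD mice 1, 2 and 3 and 2079, 1926 and 1829 in the control mice (log2 fold change -0.42, adjusted limma p 0.122). Dbi, the acyl-CoA binding protein, had a log2 fold change of 0.32 (adjusted limma p 0.423). Of the receptor genes, Pparg had a log2 fold change of 0.56 (adjusted limma p 0.373), and Ppara had 57.3, 177 and 112 against 86.2, 142 and 90.7, with a log2 fold change of 0.02 (adjusted limma p 0.993). The median log2 fold change was 0.44 for the carnitine shuttle, 0.27 for mitochondrial beta-oxidation, 0.20 for the synthetases, 0.18 for acyl-CoA binding, 0.16 for CoA synthesis and turnover, 0.09 for the PPAR receptors and coactivators, 0.08 for peroxisomal acyl-CoA oxidation and 0.23 over the 93 genes, beside 0.00492 over all genes tested.

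**Figure D5:**
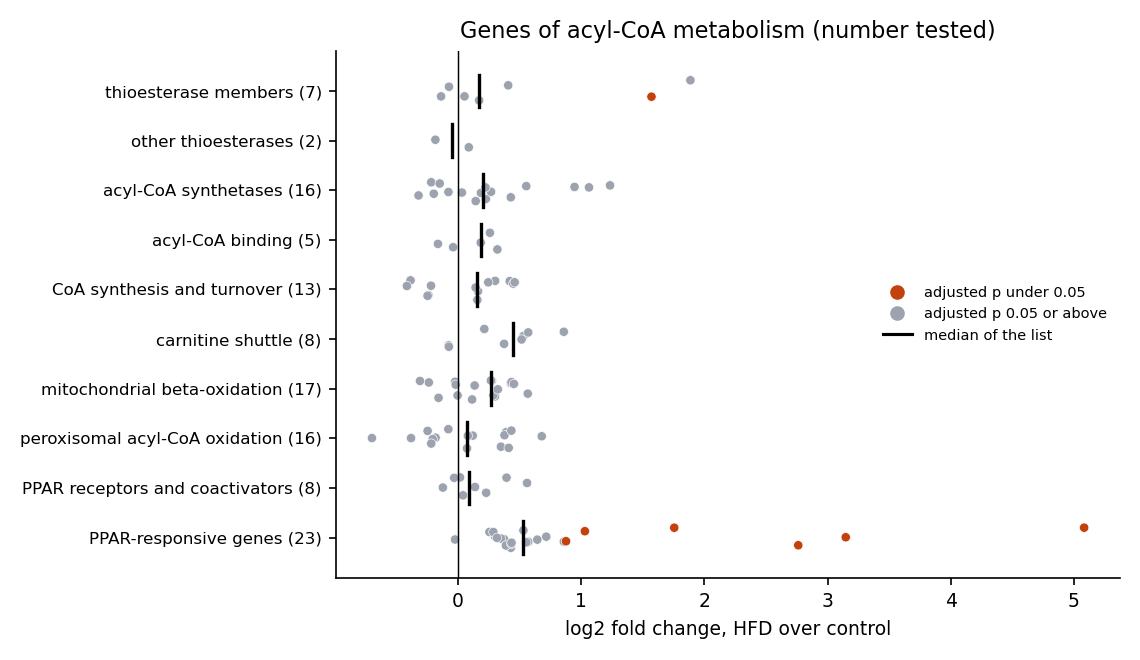
Log2 fold change of HFD over control mice for each tested gene of the thioesterase family and of 9 related lists, with the number tested in brackets; orange points have an adjusted limma p under 0.05 and black bars are list medians. The orange points are Acot2 and 6 PPAR-responsive genes, and the medians lie between -0.05 and 0.53.

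The 3 genes whose pattern over the 6 mice was most like that of Acot2 were found by the mean absolute difference of log2 values, each centred on its control mean, among all 15275 genes tested. They were Depp1 (difference 0.103), which had 780, 648 and 400 normalized counts in HFD mice 1, 2 and 3 and 247, 231 and 174 in the control mice, Fkbp5 (0.130), a co-chaperone of steroid receptors, with 1380, 1328 and 613 against 441, 408 and 277, and Btnl9 (0.151), with 818, 858 and 538 against 259, 298 and 261. In each of them HFD mouse 3 was the lowest HFD mouse and stood above the control mice. Because Acot2 differed between the diets, genes like it differ too, so their folds are a description.

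Markers of cell types were set beside the thioesterase values. The summed level of 5 atrial myocyte markers was 285060 and 285800 in HFD mice 1 and 2, the mice with the highest Acot1 and Acot2, against 518580 in HFD mouse 3 and 440110 to 480120 in the control mice. Nppa made up most of each sum, and Myl7 and Myl4 were likewise lowest in HFD mice 1 and 2. Sln had 23714, 19693 and 19799 in HFD mice 1, 2 and 3 and 26121, 27600 and 25151 in control mice 1, 2 and 3. It was the 1 marker of these 5 whose groups did not overlap, at an adjusted limma p of 0.352. Bmp10 had 1386, 5575 and 7960 against 2211, 1375 and 5568, and its groups overlapped. Among 5 brown adipocyte markers, 4 were higher in all HFD mice than in all control mice, as were 1353 of all 15275 genes tested. Of these markers, Elovl3 was not tested, and its 2 and 3 reads in HFD mice 2 and 3 were at or under the limit of 3 reads. Ucp1, the uncoupling protein of brown fat, had 706, 173 and 745 normalized counts in HFD mice 1, 2 and 3 against 86.2, 5.48 and 15.3 in the control mice (adjusted limma p 0.0446). Cidea, a lipid droplet protein, had 419, 268 and 391 against 183, 149 and 130 (adjusted limma p 0.0310), Dio2, which activates thyroid hormone, 144, 172 and 136 against 60.5, 84.2 and 41.5 (adjusted limma p 0.0591), and Elovl3, a fatty acid elongase, 14.1, 2.04 and 3.41 against 1.12, 0 and 0. Their summed level, led by Cox7a1, which muscle also expresses, overlapped at 3558 to 5266 in the HFD and 3947 to 5226 in the control mice. Among the HFD mice, Dio2 had the same order as Acot11, Cidea and Elovl3 were highest in mouse 1, as were Acot1 and Acot2, and Ucp1 was highest in mouse 3, which had the lowest Acot1, Acot2 and Acot11. The 6 white adipocyte markers summed to 1257 to 3718 in the HFD and 568 to 2747 in the control mice, and the 5 endothelial markers to 13328 to 14926 against 11105 to 12007, with 1 of the 5 (Pecam1) not overlapping. The 5 macrophage markers summed to 8218 to 10095 against 6315 to 8531, the 5 fibroblast markers to 26229 to 29659 against 27650 to 32702, the 4 ventricular myocyte markers to 4326 to 6415 against 4262 to 13770, the 6 neuron and Schwann cell markers to 597 to 1250 against 935 to 1346 and the 3 erythroid markers to 990 to 1504 against 921 to 1358. No marker of these lists was at 0 in all mice, and their part in the thioesterase values was not tested.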

How the data were processed

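The authors sequenced atria of 3 HFD and 3 control mice as single-end reads of 50 bases from directional libraries. STAR was used for alignment to GRCm38, reads without a unique position were dropped, Salmon gave the reads per Ensembl gene, and DESeq2 was used for the comparison. The signal deposited for each gene and sample is the read count divided by the size factor of the sample, called normalized count here. Every value was a whole multiple of the smallest of its sample within 0.02 reads, so reads were recovered. The authors' own fold changes, p-values and ranking scores were not used. All per-sample columns were matched to samples by name, and 1 row that names no gene held no reads.

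Diets were compared in R 4.3.3 with limma 3.58.1 (variance trend) on log2(normalized count + 1), without covariates, for genes whose mean reached 10, adjusted by Benjamini-Hochberg over all genes tested. The script was tested on simulated data. Names came from GENCODE by identifier for 42462 of 43432 genes (97.8%). The members, lists and tests were chosen with earlier results of these data known. Every member and other thioesterase is described. From each other list at most 3 genes with the smallest adjusted p past the threshold were named, or the 1 with the smallest p where none passed, and 3 genes most like each member past the threshold. Ppara, Fam151a, Snx21, the neighbours of the cluster and the cell type markers named were added because they could bear on a member's value. Whether they do was not tested. Alternatives were a pseudocount of 0.1, other filters, no variance trend, quantile normalization, size factors without mitochondrial genes, the replicate number as a block, leaving out each mouse, edgeR 4.0.16 and DESeq2 1.42.0 on recovered reads, and an absolute log2 fold change above 1 as a further criterion. Coding sequences were aligned with Biopython 1.88. Nothing says how the replicate samples of a group were raised beyond being separate samples, so p-values measure the spread between these samples.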

Additional observations from a re-analysis of the deposited data

How the results depend on the processing

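The log2 fold change of Acot2 lay between 1.37 and 1.88 in all 15 alternatives and passed the threshold in 10, with adjusted p from 4.35e-11 to 0.177, and that of Acot1 lay between 1.41 and 2.48 and passed in 3, with adjusted p from 0.00122 to 0.294. Of the 10 members, 0 passed with no variance trend, 2 with DESeq2 and 0 to 2 when a mouse was left out. Over all genes, 114 passed in the analysis reported, 0 with no variance trend (1717 at an unadjusted p under 0.05), 470 with DESeq2, 69 with the added criterion on the log2 fold change and 14 to 318 when a mouse was left out. Of the 108 other genes, 6 passed in the analysis reported, 0 with no variance trend, 3 with edgeR, 19 with DESeq2 and 2 to 21 when a mouse was left out. Among the runs that left out a mouse, the counts were highest without HFD mouse 3, and without the other mice they were at or below those reported. The cause of these changes was not tested. With quantile normalization 67 of the 114 genes called were higher, against 74 of 114 in the analysis reported.

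Same-numbered mice had correlations of 0.116, -0.027 and -0.004 between their deviations from the group means, and differently numbered mice had -0.147 to 0.160. With 3 mice a group, these values cannot decide whether the replicate numbers pair the samples. With the replicate number as a block, 157 genes and 2 members passed, Acot2 at an adjusted p of 0.00185 and Acot1 at 0.0137. The Acot1 minus Acot2 difference between diets stayed positive in 8 of 8 alternatives, from 0.0441 to 0.60 without 1 mouse. Type I minus type II moved from 1.64 to 0.75 when members below the filter were taken in. The shift in the share of Acot1 and Acot2 per length, 17.8 percentage points, was 18.7 with coding length and 15.0 to 22.9 when a mouse was left out. Depth limits Acot3, Acot4 and Acot12, for which differences were not detectable at these read numbers.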
